A study of Mus musculus with 5 samples.

Results

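A set of 10 genes induced by type I interferon were examined in mouse colon CD4 T cells with and without a Cre-driven deletion of calcineurin B. They were Ifit1, Ifit2, Ifit3, Isg15, Irf7, Oas2, Oasl2, Rsad2, Usp18 and Zbp1, given by symbol and not by their values. Each gene was represented by the probe set annotated with its symbol alone and, where there were several, by the one with the highest mean over the 5 arrays. This gave 9 of the 10 genes among 19937 genes in all, each with 1 probe set. Isg15, which encodes a ubiquitin-like protein attached to other proteins, was matched only by a probe set shared with another gene, so no value is given for it.

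RNA came from lamina propria cells of the colon sorted as CD45+CD3+CD4+CD44low and was read on 5 Affymetrix arrays. The 3 conditional arrays were from CD4cre/Cnb1flox mice, which carry a floxed Cnb1 gene (symbol Ppp3r1, the regulatory subunit of the phosphatase calcineurin) and a Cre recombinase driven by CD4. The 2 control arrays were from CD4neg/Cnb1flox mice, which carry the same floxed gene without Cre and are also labelled WT. CD4-driven Cre acts in thymocytes before the CD4 and CD8 lineages part, so in such mice the deletion is not limited to mature CD4 cells. No agent was given in either group, and ages are not given in the labels. Cells came from 3 independent experiments of 3 to 5 mice in each group. The labels do not say whether an array held RNA of 1 mouse or of several, so the spread behind the p-values may be technical.

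Type I interferons bind the receptor IFNAR1/IFNAR2, whose kinases JAK1 and TYK2 activate the transcription factor complex ISGF3. It binds interferon-stimulated response elements in the promoters of antiviral genes. T cells carry this receptor, and in the gut a tonic interferon response is known in many cell types.

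The arrays were not alike. Their median log2 signals ranged from 7.12 to 7.23, but control replicate 1 correlated with the other arrays, across genes, at 0.894 to 0.933, whereas the conditional arrays correlated with control replicate 2 at 0.967 to 0.973. All 11 measured T cell markers were lower on control replicate 1 than on every conditional array, and their mean log2 level was 8.61 there, 11.41 on control replicate 2 and 11.07 to 11.30 on the conditional arrays. Cd3e, a defining chain of the T cell receptor complex, stood at 9.45 on control replicate 1 and 12.21 on control replicate 2. Colon epithelial markers ran the other way, with a mean of 9.96 on control replicate 1, 8.68 on control replicate 2 and 7.46 to 7.96 on the conditional arrays, and all 12 were higher on control replicate 1 than on every conditional array. For the T cell and epithelial counts, the share of all genes on one side of control replicate 1 was not counted. Stromal and endothelial markers averaged 10.88 on control replicate 1, 9.34 on control replicate 2 and 8.62 to 9.62 on the conditional arrays. B and plasma cell markers averaged 9.29 and 9.36 on control replicates 1 and 2 and 8.52 to 9.04 on the conditional arrays. Of 9 such markers, 4 were lower on all conditional arrays than on both controls, against 13.1% of all genes, and 2 had a positive difference. The part of these marker lists in the levels of the 9 interferon-stimulated genes was not tested. In such bulk samples fewer T cells and less RNA per T cell cannot be told apart. The 9 genes are therefore compared against each control array as well as against their mean. Ppp3r1 itself differed by -0.05 ± 0.159 (SE; limma, adjusted p = 0.927), with -0.25 against control replicate 1 and 0.15 against control replicate 2. Its probe set may lie wholly or partly outside the deleted part, which was not tested. The value therefore does not settle whether the gene was deleted in these cells.

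**Figure D1:**
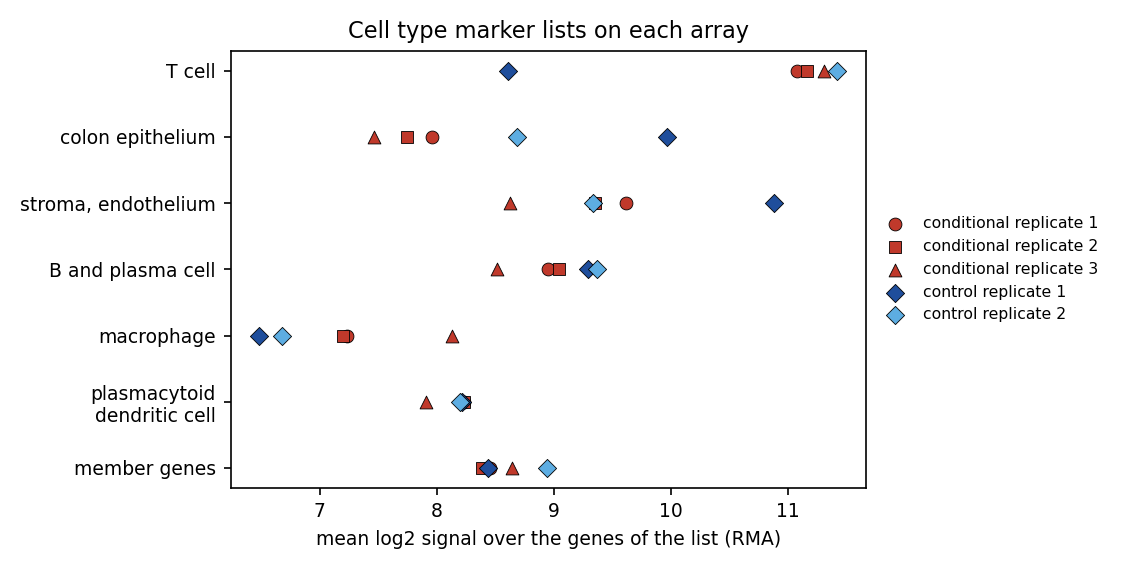
Mean log2 signal of each cell type marker list on each array (points; no error bars, since each point is 1 array). Control replicate 1 lies apart for T cell markers (8.61) and colon epithelial markers (9.96). The 9 interferon-stimulated genes average between 8.38 and 8.94 on all arrays, but this mean combines genes of opposite direction. For 2 of them all conditional arrays were above both controls (17.4% of all genes), and for 3 all were below both (13.1% of all genes).

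None of the 9 genes passed the test between the groups, and they did not move in one direction. Ifit1 and Rsad2 were higher on all conditional arrays than on both controls, and Ifit2, Ifit3 and Usp18 were lower on all of them. Irf7, Oas2 and Zbp1 were highest on control replicate 2, and for these 3 the sign of the difference depended on which control was used. Oasl2 was lower against either control but overlapped with control replicate 2.

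By count, 0 of 9 passed an adjusted p of 0.05 (limma, Benjamini-Hochberg over 19937 genes), where 0.416% of all genes passed (0.371% higher, 0.0451% lower), and 3 of 9 had an unadjusted p under 0.05 against 14.5% of all genes. Groups did not overlap for 5 of 9, 2 higher and 3 lower, against 30.5% of all genes. The median difference was -0.42, against 0.03 over all genes, and it was 0.10 with only control replicate 1 and -0.38 with only control replicate 2 (0.09 and -0.02 over all genes). The 9 genes were of middle to high signal, between the 52.4 and the 81.5 percentile of all genes by mean level, with no call against background available.

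**Figure D2:**
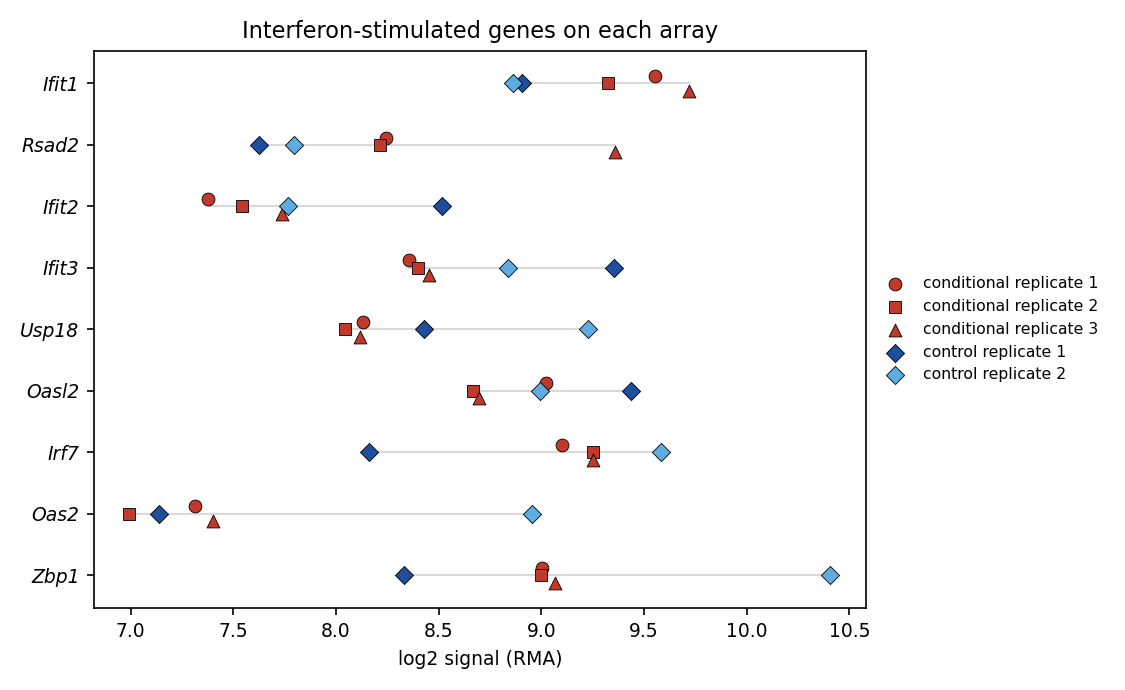
Log2 signal of the 9 genes on each array (1 point per array, grey lines joining the lowest and highest). Ifit1 and Rsad2 are higher on every conditional array than on both controls, Ifit2, Ifit3 and Usp18 are lower, and the controls are farthest apart for Zbp1, at 8.33 and 10.41.

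The IFIT genes encode tetratricopeptide repeat proteins that act on viral RNA, and Ifit2, Ifit3 and Ifit1 lie in that order in 1 cluster on chromosome 19 (GRCm38.p6), with the related genes Ifit1bl1, Ifit3b and Ifit1bl2 between Ifit3 and Ifit1. Because Ifit1 and Ifit3 lay on opposite sides of the controls and Rsad2 on the side of Ifit1, the promoters of these 3 genes are shown here, from 250 bases before to 50 after the annotated start, read 5′ to 3′ on the gene's strand (RefSeq, GRCm38.p6). Capitals mark matches to the core of the interferon-stimulated response element, GAAANNGAAA, on either strand.
Ifit1, chr19:34640639-34640938, plus strand: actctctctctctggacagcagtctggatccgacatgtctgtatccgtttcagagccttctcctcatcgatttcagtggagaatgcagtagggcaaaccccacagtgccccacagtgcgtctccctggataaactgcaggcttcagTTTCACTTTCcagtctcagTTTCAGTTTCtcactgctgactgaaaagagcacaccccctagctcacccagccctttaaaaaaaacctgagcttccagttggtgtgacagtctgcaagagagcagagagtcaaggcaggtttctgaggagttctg
Ifit3, chr19:34583279-34583578, plus strand: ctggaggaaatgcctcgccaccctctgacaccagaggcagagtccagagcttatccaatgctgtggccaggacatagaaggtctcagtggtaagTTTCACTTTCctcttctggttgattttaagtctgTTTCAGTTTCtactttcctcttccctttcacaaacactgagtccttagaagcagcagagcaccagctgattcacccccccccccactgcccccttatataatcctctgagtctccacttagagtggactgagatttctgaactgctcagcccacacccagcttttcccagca
Rsad2, chr12:26456403-26456702, minus strand: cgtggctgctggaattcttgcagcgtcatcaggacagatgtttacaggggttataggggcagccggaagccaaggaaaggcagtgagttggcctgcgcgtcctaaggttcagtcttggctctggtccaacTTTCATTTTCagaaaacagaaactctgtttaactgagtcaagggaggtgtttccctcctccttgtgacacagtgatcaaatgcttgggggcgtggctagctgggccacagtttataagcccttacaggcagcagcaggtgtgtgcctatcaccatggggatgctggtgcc

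Both Ifit1 and Ifit3 held 2 matches, and the matched letters, TTTCACTTTC followed by TTTCAGTTTC, were the same in both promoters. In Ifit1 they began 104 and 85 bases before the start site, in Ifit3 156 and 122 bases before it. Rsad2 held 1 match, TTTCATTTTC, beginning 120 bases before the start. Among 32851 promoter windows of the same length 3.44% held at least 1 match and 0.225% held 2 or more. Windows were found for 7 of the 10 genes, and 4 of them held a match. Isg15 held 3 overlapping ones, while the windows of Irf7 and Oasl2 and both windows of Ifit2 held none of these letters. Of 33 other interferon-stimulated genes with a window, 13 held a match.

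**Figure D3:**
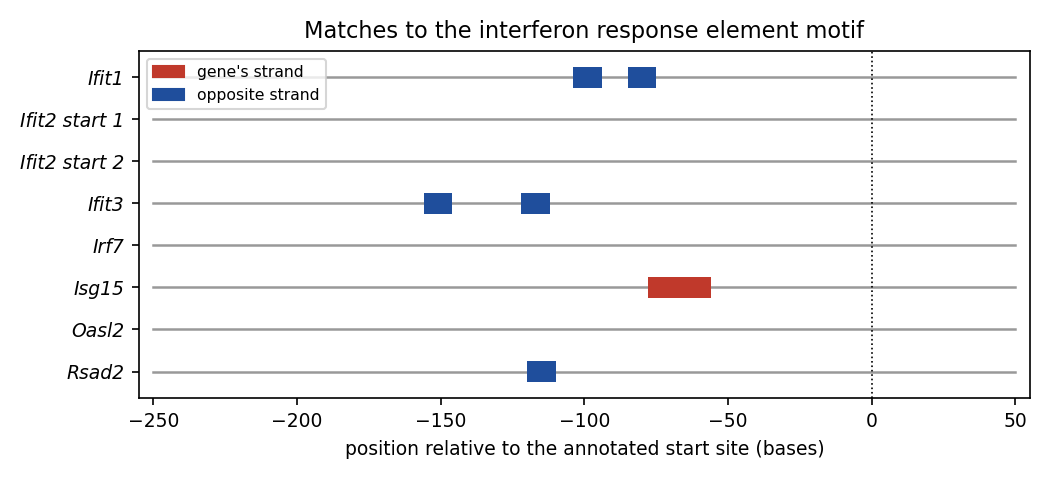
Positions of GAAANNGAAA matches (bars) in promoter windows from 250 bases before to 50 after the annotated start (dotted line), by strand. Ifit1 and Ifit3 each hold 2 matches and Rsad2 holds 1; the 3 matches of Isg15 overlap and appear as 1 bar.

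Ifit1, which binds viral RNA that lacks the methylation of host caps, stood at a log2 level of 9.55, 9.32 and 9.72 on conditional replicates 1, 2 and 3 and at 8.91 and 8.86 on control replicates 1 and 2. The lowest conditional array was above both controls, and the controls were close to each other, with a gap at the 8.77 percentile of all genes. The difference was 0.65 ± 0.149 (SE; 95% confidence interval 0.27 to 1.03; limma, adjusted p = 0.161), or 1.57-fold, and it was similar against each control, 0.62 against replicate 1 and 0.67 against replicate 2. Of the 9 genes, Ifit1 had the smallest gap between its controls and the smallest p.

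Rsad2 encodes viperin, a radical SAM enzyme that makes a chain-terminating nucleotide. Its log2 level was 8.24, 8.21 and 9.36 on the conditional arrays and 7.62 and 7.79 on the controls. All conditional arrays lay above both controls, but replicate 3 stood more than 1 log2 unit above the other two. The difference was 0.90 ± 0.389 (SE; 95% confidence interval -0.10 to 1.89; limma, adjusted p = 0.388), with 0.98 against control replicate 1 and 0.81 against control replicate 2, and it was 0.52 without conditional replicate 3. Macrophage markers were also highest on conditional replicate 3, with a mean log2 level of 8.13 against 7.1997 to 7.23 on the other conditional arrays and 6.48 and 6.68 on the controls. Of 12 such markers, 6 were higher on all conditional arrays than on both controls, against 17.4% of all genes. The part of these markers in the levels of Rsad2 and Ifit1 was not tested.

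Ifit3, which in human cells binds and stabilises IFIT1, stood at 8.35, 8.40 and 8.45 on the conditional arrays and at 9.35 and 8.84 on the controls. The conditional arrays lay within 0.0982 of each other and below both controls. Its difference was -0.69 ± 0.178 (SE; 95% confidence interval -1.15 to -0.24; limma, adjusted p = 0.191), with -0.95 against control replicate 1 and -0.44 against control replicate 2. The neighbouring paralog Ifit3b, looked up after the values were seen, was read at a log2 level of 4.04 to 4.32 and differed by 0.04.

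Ifit2, which has been linked to apoptosis as well as to antiviral defence, followed the same order of arrays as Ifit3. Levels were 7.38, 7.54 and 7.74 on the conditional arrays and 8.51 and 7.76 on the controls. Conditional replicate 3 and control replicate 2 were almost level, so the groups were only just apart. Its difference was -0.59 ± 0.257 (SE; 95% confidence interval -1.24 to 0.07; limma, adjusted p = 0.390), of which -0.96 was seen against control replicate 1 and -0.21 against control replicate 2. After each gene was centred on its own mean, Ifit2 and Ifit3 were the closest pair of the 9 genes over the 5 arrays, at a root mean square distance of 0.123 log2 units, whereas Ifit1 was 0.657 from Ifit2 and 0.683 from Ifit3.

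Usp18 encodes the protease that removes ISG15 from proteins and also blocks signalling at IFNAR2. It stood at 8.13, 8.04 and 8.11 on the conditional arrays and at 8.43 and 9.23 on the controls. The conditional arrays were tightly grouped below both controls, and the controls differed from each other by 0.80. The difference was -0.73 ± 0.250 (SE; 95% confidence interval -1.37 to -0.09; limma, adjusted p = 0.289), with -0.33 against control replicate 1 and -1.13 against control replicate 2.

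Of the enzymes that attach ISG15, the E1 gene Uba7, the E2 gene Ube2l6 and the E3 gene Herc6 were measured, and none passed the test. They differed by 0.17, -0.21 and -0.20 (limma, adjusted p = 0.857, 0.817 and 0.759), and none had its groups apart, against 30.5% of all genes. Each of the 3 changed sign between the controls, Uba7 from 0.62 against replicate 1 to -0.28 against replicate 2, Ube2l6 from -0.61 to 0.19 and Herc6 from 0.08 to -0.48.

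Oas2 and Oasl2 belong to the family of oligoadenylate synthetases, which answer double-stranded RNA with a messenger that activates RNase L. Oas2 was read at 7.31, 6.99 and 7.40 on the conditional arrays and at 7.14 and 8.96 on the controls. Control replicate 2 was far above the other 4 arrays, and control replicate 1 lay among the conditional arrays. The difference of -0.81 ± 0.543 (SE; 95% confidence interval -2.20 to 0.58; limma, adjusted p = 0.565) was made of 0.10 against control replicate 1 and -1.72 against control replicate 2.

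Oasl2 did not share that order. It stood at 9.02, 8.67 and 8.70 on the conditional arrays and at 9.43 and 8.99 on the controls, with conditional replicate 1 just above control replicate 2. Its difference was -0.42 ± 0.195 (SE; 95% confidence interval -0.92 to 0.08; limma, adjusted p = 0.419), with -0.64 against control replicate 1 and -0.20 against control replicate 2. Among other genes of this family, chosen after their values were seen, Oas3 resembled Oas2 in being highest on control replicate 2 (8.22 against 6.84 on control replicate 1 and 7.54 to 7.91 on the conditional arrays), while Oas1a was at 7.60 to 7.74 on the conditional arrays, above 7.06 and 7.52 on the controls.

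Irf7, the transcription factor that amplifies interferon-alpha production, stood at 9.10, 9.25 and 9.25 on the conditional arrays and at 8.16 and 9.58 on the controls. All 3 conditional arrays lay between the controls. The difference from the control mean was 0.33 ± 0.421 (SE; 95% confidence interval -0.74 to 1.41; limma, adjusted p = 0.797), with 1.04 against control replicate 1 and -0.38 against control replicate 2.

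Zbp1, a sensor of Z-form nucleic acids that can start necroptosis, varied most of the 9 genes. Its level was 9.004, 9.0003 and 9.07 on the conditional arrays and 8.33 and 10.41 on the controls. The conditional arrays lay within 0.0654 of each other and between controls that were 2.08 apart, a gap at the 96.7 percentile of all genes. The difference from the control mean was -0.35 ± 0.602 (SE; 95% confidence interval -1.88 to 1.19; limma, adjusted p = 0.868). In fits with 1 control array it passed in opposite directions, at 0.69 against replicate 1 (limma, adjusted p = 0.00965) and at -1.38 against replicate 2 (limma, adjusted p = 0.00577).

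In those single-control fits the lone control is assumed to vary like the conditional arrays, and it carries its own makeup of cells into every value. Against control replicate 1 alone 5 of 9 passed, where 27.5% of all genes passed: Irf7 and Zbp1 were higher, and Ifit2, Ifit3 and Oasl2 lower. Against control replicate 2 alone 3 of 9 passed, where 6.10% of all genes passed: Oas2, Usp18 and Zbp1 were lower. None of the 9 passed in the same direction in both, and the comparisons share their conditional arrays. Ifit1 did not pass in either (limma, adjusted p = 0.0507 and 0.0971). The gap between the controls was wider than the range of the conditional arrays for 7 of 9, against 59.3% of all genes, Ifit1 and Rsad2 being the other two. All 3 conditional arrays lay between the controls for 2 of 9 genes, against 17.9% of all genes. T cell markers also differed between the controls, by a median of 2.76, and their part in these gaps was not tested.

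**Figure D4:**
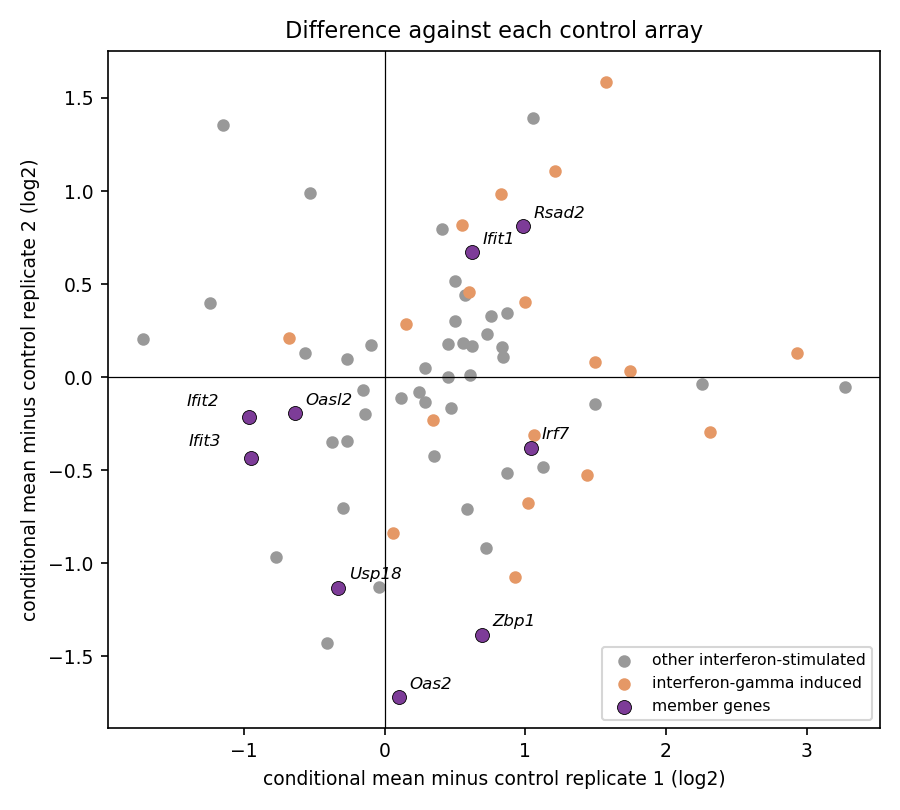
Difference of the conditional mean from control replicate 1 (x axis) and from control replicate 2 (y axis), in log2 units, for the 9 genes, 43 other interferon-stimulated genes and 18 genes induced chiefly by interferon-gamma; 1 point per gene, with the same conditional mean on both axes. Ifit1 and Rsad2 are positive on both axes, and Zbp1, Irf7 and Oas2 are positive against replicate 1 and negative against replicate 2.

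By root mean square distance of centred log2 levels over the 5 arrays, the named genes nearest to Zbp1, the gene of the 9 with the widest range, were Ptpn6 (0.0485), Arhgef1 (0.0655), Mapk11 (0.0779), Ppm1h (0.0836) and Abi3 (0.0855). Ptpn6, the SHP-1 phosphatase gene of blood cells, stood at 8.50, 8.46 and 8.48 on the conditional arrays and at 7.72 and 9.77 on the controls. Like Zbp1, it had the conditional arrays close together between the controls, with control replicate 2 highest. None of the 5 was among the interferon-stimulated genes listed here, and Ptpn6 was among the listed negative regulators.

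Upstream of these genes, none of the measured receptor and signalling genes passed the test. Of the 6 measured, 2 had all conditional arrays above both controls, Ifnar1 and Stat2, against 17.4% of all genes. The median difference was 0.23, against 0.03 over all genes. Ifnar1, a receptor chain, stood at 10.24, 10.38 and 10.25 against 9.93 and 10.17 on the controls, a difference of 0.24 (limma, adjusted p = 0.458). Stat2 stood at 9.83, 9.78 and 9.77 against 9.42 and 9.60, a difference of 0.29 (limma, adjusted p = 0.337). The receptor chain Ifnar2 and the kinase Tyk2 differed by -0.18 and 0.36 (limma, adjusted p = 0.735 and 0.574), and Ifnar2 turned to 0.09 against control replicate 2.

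Type I and type III interferon ligand genes were dim, with a median at the 24.4 percentile of all genes by level. Of 14 measured, 0 passed (limma) and 0 had an unadjusted p under 0.05, against 14.5% of all genes. Those with the smallest p were Ifne, Ifna9, Ifna14 and Ifna12, at 0.22, 0.21, 0.33 and 0.14. Markers of plasmacytoid dendritic cells, the main producers of interferon-alpha, averaged 7.90 to 8.23 on the conditional arrays and 8.21 and 8.19 on the controls. These means overlapped, but the 8 markers were mixed, with 4 positive differences and a range from -0.99 to 0.50. Groups were apart for 1 of 8, against 30.5% of all genes. This was Siglech, at 6.84, 6.81 and 7.10 on the conditional arrays and 6.43 and 6.77 on the controls.

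Nucleic acid sensors, adaptors and their kinases gave 0 of 16 past the test (limma). At an unadjusted p under 0.05 there were 2 (limma), against 14.5% of all genes. Groups were apart for 6 (37.5%, against 30.5% of all genes), 3 higher and 3 lower. Irf5, a factor downstream of Toll-like receptors, stood at 9.21, 9.37 and 9.01 on the conditional arrays and at 8.44 and 8.24 on the controls, a difference of 0.86 (limma, adjusted p = 0.109). The kinase gene Tbk1 differed by 0.44, the adaptor gene Mavs by -0.35 and the RNA sensor gene Ddx58 (RIG-I) by -0.49 (limma, adjusted p = 0.187, 0.367 and 0.427). Among 13 negative regulators of interferon signalling 0 passed (limma) and 1 had an unadjusted p under 0.05, against 14.5% of all genes. Rnf125, a ubiquitin ligase gene whose product marks RIG-I for degradation in human cells, stood at 12.20, 12.22 and 12.32 against 10.31 and 11.35, a difference of 1.42 (limma, adjusted p = 0.152). Cish, Socs3 and Pias1 differed by 0.91, -0.26 and 0.26 (limma, adjusted p = 0.387, 0.433 and 0.440).

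The wider set of interferon-stimulated effector genes was also mixed in direction. Of 43 measured, 0 passed (limma; 11 at an unadjusted p under 0.05, against 14.5% of all genes). Differences were positive for 28 of them (65.1%, against 55.9% of all genes) and ranged from -0.92 to 1.61 with a median of 0.17. Groups were apart for 17 (39.5%, against 30.5% of all genes), of which 10 were higher and 7 lower. The smallest p was that of the predicted gene Gm4951, which stood at 7.62, 7.68 and 7.42 on the conditional arrays and at 6.52 and 6.18 on the controls, a difference of 1.22 (limma, adjusted p = 0.0664), with 1.05 against control replicate 1 and 1.39 against control replicate 2. It passed after median centring (limma, adjusted p = 0.0373) and against control replicate 1 or 2 by itself (limma, adjusted p = 0.00516 and 0.00928). Znfx1, a helicase gene of RNA sensing, stood at 9.25, 9.22 and 9.30 on the conditional arrays against 8.76 and 8.74 on the controls, a difference of 0.51 (limma, adjusted p = 0.126). Ifi35 differed by 0.51, and the schlafen gene Slfn5 differed by -0.87, from 8.52 and 8.71 on the controls to 8.08, 7.63 and 7.52 (limma, adjusted p = 0.132 and 0.164). Their median was 0.45 relative to control replicate 1 and 0.01 relative to control replicate 2.

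Genes induced chiefly by interferon-gamma gave 2 of 18 past the test, both higher, Cxcl9 and Gbp3, against 0.371% of all genes called higher. As a list they depended on the control used. Their median difference shrank from 1.01 with replicate 1 as sole control to 0.11 with replicate 2 (0.09 and -0.02 over all genes). Positive differences numbered 17 of 18 in the first case and 11 in the second. For 6 of the 18, all conditional arrays lay between the controls (17.9% of all genes). For 8 they lay above both (17.4% of all genes). Cxcl9, a chemokine gene, stood at 8.73, 8.82 and 8.62 against 7.15 and 7.14, a difference of 1.58 (limma, adjusted p = 0.0279), and Gbp3, a guanylate-binding protein gene, differed by 1.16 (limma, adjusted p = 0.0496). For both, unlike for Irf7, Oas2 and Zbp1, the sign was the same against each control, 1.57 and 1.59 for Cxcl9 and 1.21 and 1.11 for Gbp3. Neither passed in limma when any 1 conditional array was left out, when 0 of all genes passed. Of the 12 settings that kept all arrays, Gbp3 lost its call in 8 (limma, adjusted p = 0.0502 to 0.177) and Cxcl9 in 2, array weights and the replicate block (limma, adjusted p = 0.103 and 0.0772). All 12 macrophage markers were positive against each control, with a median difference of 0.72 and 6 apart. All 12 epithelial markers were negative against the control mean, with a median of -1.62 and 7 apart, where 30.5% of all genes were apart. The part of these markers in the levels of Cxcl9 and Gbp3 was not tested. Whether the interferon-gamma genes and the 9 type I genes differ as groups was not tested, and many genes respond to both interferons.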

How the data were processed

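The deposited values were log2 signals of 34760 probe sets on 5 arrays, which the authors made with the RMA method of oligo (named in the submitters' processing notes). RMA corrects background, quantile-normalizes arrays together and summarises probes, which removes global shifts and shrinks differences of dim genes. Tool versions and the build: not given in the sources used here. Per the labels' protocols, 100 ng of total RNA (RNA integrity number at least 9.2) was amplified with a whole-transcript kit. Arrays have no read depth; their number limits the precision.

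The platform annotation gave 1 symbol for 21640 probe sets, several for 1321 and none for 11799. The brightest probe set stood for each of 19937 genes. Groups were compared with limma 3.58.1 (R 4.3.3; lmFit, eBayes, 3 residual degrees of freedom, no covariate), adjusted by Benjamini-Hochberg over all genes, threshold 0.05. On simulated arrays drawn from the fitted variance model, the procedure recovered 24.0% of changes of 1 log2 unit and 75.4% of changes of 2 log2 units. Of its calls, 6.42% were false. The simulated arrays varied independently and alike, and none was set apart over many genes as control replicate 1 was. These rates may therefore not hold for the real arrays. A gene that did not pass is not shown to be unchanged.

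The genes and lists were chosen with earlier results of these data known. Beyond the 9 genes, text names list members past the threshold or else up to 4 with the smallest p, and the 5 genes nearest to the widest-ranging of the 9; Ppp3r1 (as the targeted gene), Ifit3b, cell type markers and genes marked as chosen after their values were seen stand outside this rule. Motif matches were searched in RefSeq promoter windows. Alternatives changed normalization, filters, probe sets, variance model, weights, replicate block, arrays and threshold.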

Additional observations from a re-analysis of the deposited data

How the results depend on the processing

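The 2 controls differed from each other, and for 3 of the 9 genes the sign of the difference depended on which control was used. The count of the 9 genes past the threshold was 0 to 5 when 1 array was left out (3 without control replicate 1, 5 without control replicate 2, 0 without any conditional array) and 3 at an unadjusted p of 0.05; it stayed at 0 in the other 11 settings. The number with groups apart was 5 to 8 with 1 array left out, and 4 after median centring or another quantile normalization. Groups of fewer arrays lie apart more easily, and the share of all genes apart was not counted in these settings. These counts therefore say nothing particular about the 9 genes. The median difference of the 9 genes ranged from -0.50 to 0.10 with 1 array left out, the 0.10 being without control replicate 2, and from -0.42 to -0.32 in the other settings. Signs turned for Irf7 (-0.38 to 1.04), Oas2 (-1.72 to 0.10), Zbp1 (-1.38 to 0.69), Ifnar2 (-0.46 to 0.092), Ube2l6 (-0.61 to 0.19), Uba7 (-0.28 to 0.62) and Herc6 (-0.48 to 0.081), each range being over 1 array left out. Of the 113 other interferon genes, 2 passed in the main analysis, 0 to 53 with 1 array left out (16 without control replicate 1, 53 without control replicate 2), 1 after another quantile normalization, with either filter on dim genes, with the mean of probe sets and with either intensity trend, 0 with array weights, 4 at an adjusted p of 0.10 and 21 at an unadjusted p of 0.05. Over all genes, 83 passed in the main analysis, 0 to 5474 with 1 array left out (1217 without control replicate 1), 48 after another quantile normalization, 275 when every probe set was tested, 13 with array weights, 374 at an adjusted p of 0.10 and 2892 at an unadjusted p of 0.05. With the replicate block, which leaves conditional replicate 3 without a partner, 0 of the 9 genes, 0 of the 113 and 69 of all genes passed; deviations of same-numbered arrays correlated across genes at 0.400 for replicate 1 and -0.287 for replicate 2, so the numbers were not taken to pair the arrays. Except where the setting itself removes arrays, the cause of these shifts was not tested.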

Other observations

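Several other interferon-stimulated genes, chosen here after their values were seen, had their lowest or highest level on control replicate 1. Slfn1, a schlafen gene of lymphocyte quiescence, stood at 6.81 on control replicate 1, 10.14 on control replicate 2 and 9.81 to 10.39 on the conditional arrays. Epsti1 stood at 7.05, 9.35 and 9.003 to 9.52 in the same order. The RNA sensor gene Tlr3 was instead highest there, at 7.59, against 6.02 on control replicate 2 and 5.60 to 6.14 on the conditional arrays. Ifitm1 and Ifitm3, which encode membrane proteins that restrict viral entry, were also highest there, at 12.41 and 12.16. Ifitm1 was at 9.91 on control replicate 2 and spread from 10.46 to 11.79 on the conditional arrays, and Ifitm3 was at 10.51 and spread from 10.45 to 11.32. T cell markers were lowest and colon epithelial and stromal markers highest on that array, and their part in these levels was not tested.

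A few genes, also chosen after their values were seen, set control replicate 2 apart, as Oas2, Usp18 and Zbp1 did. Rnf213, a large ubiquitin ligase gene, stood at 10.97 there, against 9.96 on control replicate 1 and 9.47 to 9.62 on the conditional arrays. Ddx60, an RNA helicase gene, stood at 8.19 there, against 7.10 on control replicate 1 and 6.93 to 7.16 on the conditional arrays. The mean log2 level of T cell markers was 11.41 there and 11.07 to 11.30 on the conditional arrays.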
